A study of Arabidopsis thaliana with 8 samples.

Results

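The genes described here are rpl22, rps3, rpl14, rpl36 and rpoA, which lie close together in one gene cluster of the Arabidopsis plastid genome. They were taken as the probe sets that the array annotation assigns to these 5 genes alone, and each gene had 1 probe set, which makes 5 of 22810 probe sets, or 5 of the 14349 genes that the annotation names. The genes were chosen by their log2 signal difference between a gibberellin-deficient mutant and its wild type, where they were among the lowest plastid genes, so that contrast is given below as a description, with no test. RNA of whole 7-day-old seedlings, grown without treatment, was measured on 8 arrays in 4 groups of 2. The GA-deficient group carried a leaky allele that lowers gibberellin, in the Ler background (stock N3106), and the Ler group was the wild type Ler-0 (stock NW20). The de-etiolated group was a mutant of that name in the Col background (stock N6159), and the Ws group was the wild type Wassilewskija (stock N2360). The labels name neither mutated gene nor allele, and no Col wild type was among these samples, so in the de-etiolated group mutation and accession cannot be told apart. Whether the 2 arrays of each group stand for separate cultures is not stated, so p-values measure only the spread between these arrays, which may be technical.

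Plastids carry a small genome of bacterial descent, with its own ribosomes and its own RNA polymerase. The cluster studied here runs from rpl23 to rpoA and resembles ribosomal protein operons of bacteria. In plastids such clusters are transcribed into long RNAs that are then cut into shorter ones, so the level of each gene's RNA depends on transcription, on processing and on decay. The genes rpl22, rpl14 and rpl36 encode proteins of the large ribosomal subunit, rps3 encodes a protein of the small subunit, and rpoA encodes the alpha subunit of the plastid-encoded RNA polymerase, which transcribes many photosynthesis genes. The question addressed is whether the 5 genes move together, as genes of one transcription unit may.

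By the gene table of assembly TAIR10.1, the 9 genes of the cluster that are reported here lie in the order rpl23, rpl2, rps19, rpl22, rps3, rpl16, rpl14, rpl36 and rpoA. The other 4 besides the members are rpl23 and rpl2, whose probe sets are assigned to both copies of the gene in the inverted repeat, and rps19 and rpl16. All 5 members passed the filter on dim probe sets. Their signals were among the brightest on the arrays, between the 79.9th and the 99.96th percentile of all probe sets. Signals of different probe sets cannot be set against each other as levels, so each gene is compared with itself across arrays.

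Arrays were alike in scale, with a 2%-trimmed mean of 100.01 in each and medians of 34.9 to 38.4. Log2 signals of arrays in the same group correlated at 0.965 to 0.971, and those of arrays from separate groups at 0.934 to 0.963. The 25S rRNA control had a signal of 69.7 and 39.6 in the GA-deficient group and 30.3 and 26.0 in Ler. In the de-etiolated group it was 108 and 62.4, against 32.0 and 22.2 in Ws. For the older of the actin controls, 3′ signal over 5′ signal gave 3.84 and 4.93 in the GA-deficient group, against 5.22 and 4.77 in Ler. That ratio was 2.35 and 2.32 in the de-etiolated group and 2.26 and 1.90 in Ws. For the newer actin control it was 1.497 and 1.158 in the GA-deficient group, against 1.495 and 1.369 in Ler. It was 1.32 and 1.309 in the de-etiolated group and 1.26 and 1.374 in Ws. The newer ubiquitin control gave 0.989 and 0.929 in the GA-deficient group, against 0.943 and 0.79 in Ler. It gave 0.986 and 1.648 in the de-etiolated group and 1.828 and 1.436 in Ws. Clearly higher ratios in the GA-deficient and Ler groups were thus seen with the older actin control alone. Of 5 listed green-tissue markers 1 was named by a probe set, LHCB4.1 of the photosystem antenna. Its signal was 2029 and 1933 in the GA-deficient arrays, against 1766 and 1643 in Ler, and 1530.0 and 1995 in the de-etiolated arrays, against 2099 and 1818 in Ws. Both GA-deficient arrays were thus above both Ler arrays for this marker, and its part in the differences given below was not tested. Of 4 root markers PYK10 alone was named, at 1602 and 1619 in the GA-deficient arrays, against 1821 and 1531 in Ler, and at 1786 and 2463 in the de-etiolated arrays, against 2094 and 2147 in Ws. Its arrays overlapped within both pairs of groups. Listed seed storage genes and floral regulators were not named by a probe set of 1 gene.

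The large-subunit gene rpl22 had a signal of 339 and 256 in the GA-deficient arrays, against 1415 and 1241 in Ler. In the de-etiolated mutant its signal was 1422 and 1667, against 1715 and 1704 in Ws. Both GA-deficient arrays were far below all 6 others, and the other 3 groups lay in the order Ws, de-etiolated, Ler with no overlap between their arrays. Signal of rpl22 averaged 297 ± 58.9 in the GA-deficient mutant, 1328 ± 123 in Ler, 1544 ± 174 in the de-etiolated mutant and 1709 ± 8.00 in Ws (SD, n = 2 each).

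For rps3, of the small subunit, the GA-deficient arrays gave 637 and 628, against 1685 and 1837 in Ler. The de-etiolated arrays gave 1553 and 1861, against 2102 and 1964 in Ws. Again the GA-deficient arrays stood alone at the bottom and both Ws arrays were highest, while the Ler and de-etiolated arrays overlapped. Means were 632 ± 6.17 in the GA-deficient mutant, 1761 ± 107 in Ler, 1707 ± 218 in the de-etiolated mutant and 2033 ± 97.6 in Ws.

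Another large-subunit gene, rpl14, had a signal of 175 and 137 in the GA-deficient mutant and 656 and 745 in Ler. The de-etiolated arrays gave 585 and 794, and the Ws arrays 1008 and 723. The arrays of Ler, de-etiolated and Ws overlapped one another, so that only the GA-deficient group stood apart for this gene. Its mean signal was 156 ± 26.4 in the GA-deficient mutant, 701 ± 62.6 in Ler, 689.7 ± 147 in the de-etiolated mutant and 865 ± 202 in Ws.

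Signal of rpl36, which encodes a very small protein of the large subunit, was 556 and 782 in the GA-deficient arrays and 1759.8 and 1643 in Ler. It was 1727 and 2179.5 in the de-etiolated arrays and 2375 and 2036 in Ws. The GA-deficient arrays were again the lowest. De-etiolated arrays overlapped with those of both wild types, while both Ws arrays were above both Ler arrays. The group means were 669 ± 159.998 in the GA-deficient mutant, 1701 ± 82.9 in Ler, 1953 ± 319.9 in the de-etiolated mutant and 2206 ± 239.6 in Ws.

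The polymerase gene rpoA had 506 and 494 in the GA-deficient mutant, against 654 and 1653 in Ler. In the de-etiolated mutant it had 875 and 865, against 1674 and 1241 in Ws. The Ler arrays were thus far apart from each other and spanned the values of the de-etiolated arrays and of the lower Ws array. Its mean was 499.98 ± 8.10 in the GA-deficient mutant, 1154 ± 706 in Ler, 870.2 ± 7.37 in the de-etiolated mutant and 1458 ± 306 in Ws. The gap between the Ler arrays was 1.33 on the log2 scale, where 95% of all tested probe sets had a gap of at most 0.647 in Ler. It was the only gap between replicate arrays, of the 20 that the 5 genes have in 4 groups, that exceeded the 95th percentile of its group. Over all tested probe sets the same share of gaps exceeds that percentile by definition.

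**Figure D1:**
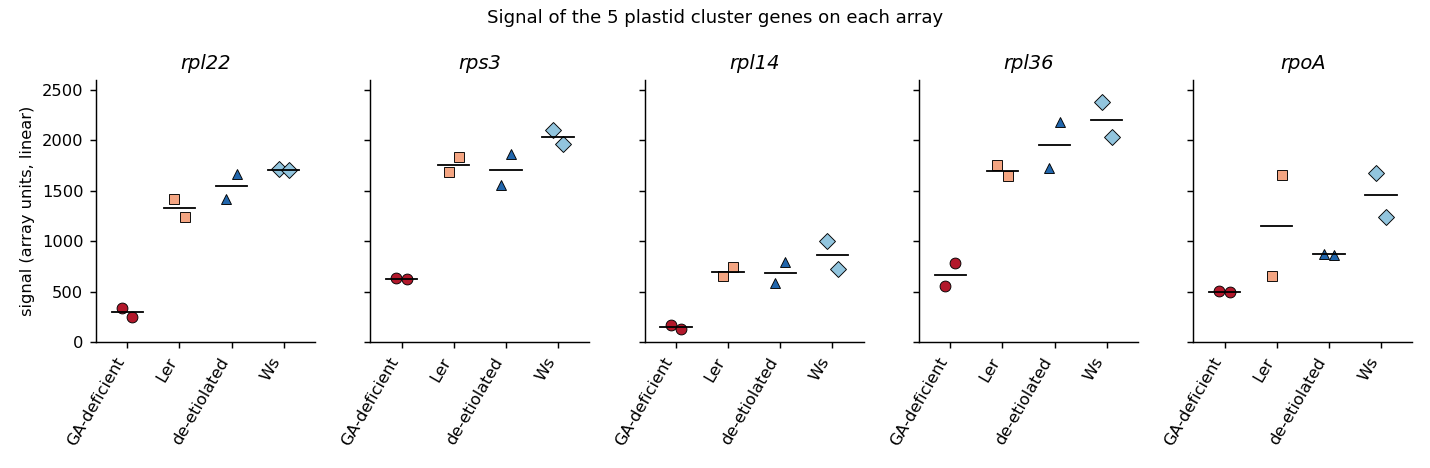
Signal of each of the 5 genes on each array, on a linear scale that starts at 0, with 2 points per group and a line at their mean. The GA-deficient arrays are lowest in every panel, and for rpoA the Ler arrays lie far apart, at 654 and 1653.

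All 5 genes had both GA-deficient arrays below both Ler arrays, in a comparison where 27.7% of the 13647 tested probe sets did so, and this contrast had served to choose the genes. The log2 difference of group means, on log2(signal + 2.96), was -2.16 for rpl22, -1.47 for rps3, -2.15 for rpl14, -1.36 for rpl36 and -1.05 for rpoA. On this scale rpl22 was 4.46-fold and rpl14 4.45-fold lower in the mutant, rps3 2.77-fold, rpl36 2.57-fold and rpoA 2.07-fold. The value for rpoA rested on the upper Ler array. Without Ler replicate 2 its log2 difference was -0.39, and without Ler replicate 1 it was -1.72, while the differences of the 4 ribosomal protein genes stayed between -2.36 and -1.12 with any 1 array left out.

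The GA-deficient arrays were also below all 6 other arrays for all 5 genes, which 12.1% of tested probe sets showed. Set against Ws alone or the de-etiolated mutant alone, 29.6% of tested probe sets had both GA-deficient arrays lower in either case, beside 5 of 5 members. The log2 difference from Ws ran from -2.52 (rpl22) to -1.52 (rpoA), and that from the de-etiolated mutant from -2.37 (rpl22) to -0.80 (rpoA). These contrasts share the GA-deficient arrays with the one that chose the genes, so they add no independent evidence. In the same 2 arrays the 25S rRNA control was above that of both Ler arrays. In the de-etiolated arrays, where none of the 5 genes was as low, that control was above both Ws arrays as well. Its part in the differences was not tested.

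In gene order the differences between the GA-deficient mutant and Ler were uneven, as the plot of differences along the cluster shows. At the start of the cluster rpl23 and rpl2, both encoding large-subunit proteins, had log2 differences of 0.078 and 0.23. Signal of rpl2 was 1772 and 1735 in the mutant, against 1540.1 and 1458 in Ler, so the mutant's arrays were above those of Ler. The next gene, rps19 of the small subunit, had 836 and 902 in the mutant, against 947 and 1175 in Ler, a log2 difference of -0.28. Its neighbour rpl22 is the first member in gene order, at -2.16.

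Beyond rps3 the differences turned back and down again. The gene rpl16, which lies between rps3 and rpl14 and is no member, had 1197 and 1124 in the mutant, against 1796 and 1636 in Ler. Its log2 difference was -0.56, and its 4 array-to-array differences, from -0.67 to -0.45, lay apart from those of rps3 (-1.54 to -1.40) and of rpl14 (-2.41 to -1.89). Of the cluster genes, rpoA at -1.05 was thus the one just inside the chosen set and rpl16 the one just outside it. The array-to-array differences of rpl22 (-2.45 to -1.86) and rpl14 overlapped each other and lay below those of rps3 and rpl36 (-1.66 to -1.07). Those of rps3 and rpl36 overlapped. The range for rpoA, from -1.74 to -0.37, covered both of these.

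The chip's upper end bears on how much a bright gene can differ. The brightest probe set of an array had a signal of 2134 to 2814. In Ler the mean signal was 80.6% of that array maximum for rps3, 78.4% for rpl16, 77.7% for rpl36 and 60.6% for rpl22, but 32.1% for rpl14. In the GA-deficient mutant it was 26.7% for rps3, 49.1% for rpl16, 28.3% for rpl36, 12.6% for rpl22 and 6.59% for rpl14. The genes rpl23 and rpl2 stood at 77.3% and 74.1% in the mutant and at 79.2% and 68.5% in Ler. Whether signal near the maximum was compressed was not tested.

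**Figure D2:**
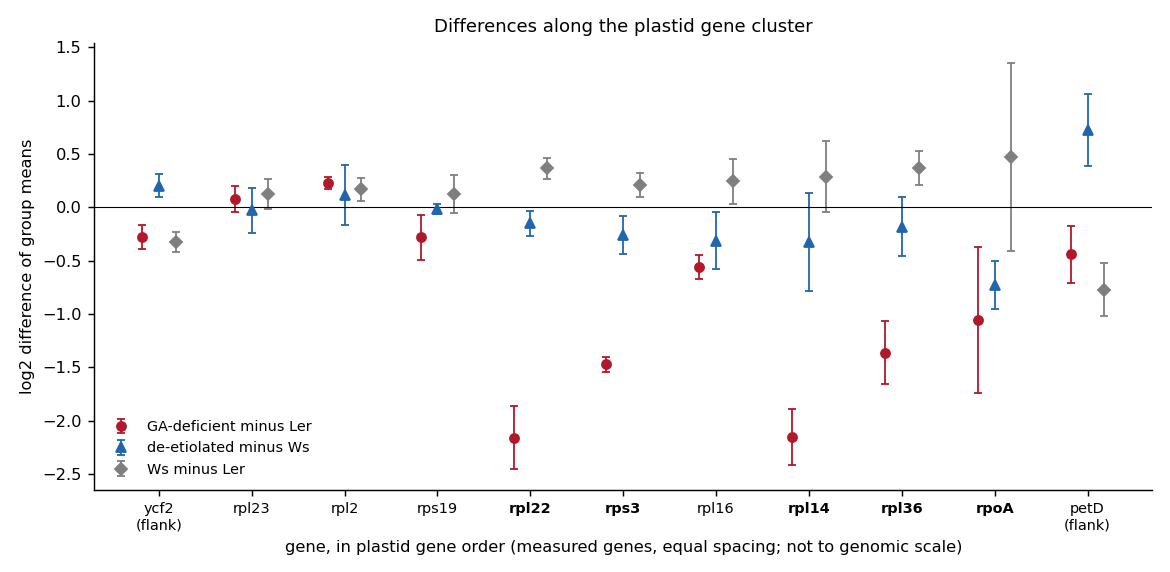
Log2 difference of group means for each cluster gene reported here and the nearest protein-coding gene on either side (ycf2 and petD), in plastid gene order at equal spacing, for the GA-deficient mutant minus Ler, the de-etiolated mutant minus Ws and Ws minus Ler, with bars from the lowest to the highest of the 4 array-to-array differences. Differences of the GA-deficient mutant from Ler are 0.078 and 0.23 at rpl23 and rpl2, -2.16 at rpl22, -0.56 at rpl16 and -2.15 at rpl14. The members are in bold.

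The de-etiolated mutant and Ws share no array with the contrast that chose the genes, and this comparison was tested. None of the 5 genes was called in either direction, where 2.24% of the 13647 tested probe sets were (184 higher, 1.35%, and 122 lower, 0.894%, in the mutant; limma, Benjamini-Hochberg adjusted p under 0.05). At an unadjusted p under 0.05 only rpoA passed, and so did 16.9% of tested probe sets. All 5 differences were negative, as were those of 6431 of the 13647 tested probe sets. Their median was -0.26, beside 0.021 for all tested probe sets. Outside the cluster 10 of 12 plastid ribosomal protein probe sets and 3 of 3 other polymerase subunit probe sets were also negative. Of the plastid photosynthesis and NDH probe sets 12 of 43 were. Both de-etiolated arrays were below both Ws arrays for rpl22, rps3 and rpoA, and 21.5% of tested probe sets showed that.

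The difference between the de-etiolated mutant and Ws was largest for rpoA, at -0.73 on the log2 scale (95% interval -1.39 to -0.059, limma adjusted p = 0.25). The genes rpl14 (-0.32, interval -0.74 to 0.099, adjusted p = 0.43) and rps3 (-0.26, interval -0.52 to 0.011, adjusted p = 0.32) followed. For rpl36 the difference was -0.18 (interval -0.55 to 0.19, adjusted p = 0.65) and for rpl22 it was -0.15 (interval -0.48 to 0.17, adjusted p = 0.67).

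The call for rpoA depended on the Ler arrays, although they are not part of this contrast, because all groups share 1 estimate of the spread. With Ler replicate 1 left out, rpoA was called lower in the de-etiolated mutant (limma adjusted p = 0.026), and so it was with Ler replicate 2 left out (adjusted p = 0.027). When the de-etiolated and Ws arrays were fitted alone it was not called (adjusted p = 0.084). Its difference stayed between -0.94 and -0.51 with any 1 array left out.

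A rescaling by the median level of the other plastid genes made the differences from Ws smaller. Subtracting each array's median log2 signal of plastid genes outside the cluster moved all probe sets by 0.20 in this contrast, although the median difference of those plastid genes themselves was 0.024. The median of the 5 genes was then -0.052, rpl22 (0.054) and rpl36 (0.024) turned positive, and rpoA stayed negative (-0.52, limma adjusted p = 0.26). These signs depend on the shift of 0.20. Without it all 5 genes, at -0.73 to -0.15, were below the plastid genes' median difference of 0.024. For the GA-deficient mutant against Ler the same rescaling moved all probe sets by 0.067 and left the median of the 5 genes at -1.40.

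Between the wild types the mean of all 5 genes was higher in Ws than in Ler, by 0.37 for rpl22, 0.21 for rps3, 0.29 for rpl14, 0.37 for rpl36 and 0.47 for rpoA. The direction for rpoA turned with 1 array, to -0.20 without Ler replicate 1, against 1.14 without Ler replicate 2. For rpl14 the difference was 0.047 without Ws replicate 1 and 0.53 without Ws replicate 2. Both Ws arrays were above both Ler arrays for rpl22, rps3 and rpl36, where 23.1% of tested probe sets did so. This contrast shares the Ler arrays with the one that chose the genes and was not tested for them. The median over the 67 tested plastid probe sets outside the cluster was 0.14, and that of all tested probe sets was -0.019. Rescaling by the median level of the other plastid genes moved all probe sets by -0.25 here, although their median difference was 0.14. After it rps3 was lower in Ws (-0.044) and the other 4 members were higher by 0.035 to 0.22. Without it all 5 genes, at 0.21 to 0.47, were above that median difference of 0.14. Against Ler the de-etiolated mutant had differences on both sides of zero, from -0.26 for rpoA to 0.22 for rpl22. The value for rpoA was -0.92 without Ler replicate 1 and 0.41 without Ler replicate 2. The differences of rps3 (-0.049) and rpl14 (-0.036) also turned positive without Ler replicate 2 or without de-etiolated replicate 1, while those of rpl22 and rpl36 stayed positive with any 1 array left out. Here 1 gene, rpl22, had both de-etiolated arrays above both Ler arrays, which 28.1% of tested probe sets showed.

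Over the 8 arrays the log2 signals of the 4 ribosomal protein genes were closely correlated with one another, and that of rpoA less so. Pearson correlations were 0.993 between rps3 and rpl14, 0.985 between rpl22 and rps3 and 0.983 between rpl22 and rpl14. Those of rpl36 with the other ribosomal protein genes were 0.955 to 0.971. With rpoA the correlations were 0.739 to 0.817. Each is a description over 8 arrays that fall into 4 groups and include the GA-deficient arrays, which are lowest for all 5 genes. The genes were chosen by the difference of those arrays from Ler. These correlations, and the ranks that follow, are thus shaped by that choice and are no independent evidence that the genes move together. Among the 7337 other tested probe sets that name 1 gene, rps3 and rpl14 were each other's closest, whereas the member closest to rpoA, rps3, ranked 88th.

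The neighbours differed in the same measure, where the mean profile is that of genes chosen by the difference between the GA-deficient mutant and Ler. Against the mean profile of the 5 genes, the correlation was 0.107 for rpl23, -0.13 for rpl2, 0.887 for rps19 and 0.934 for rpl16. A correlation does not reflect the size of a difference, and rps19 differed by only -0.28 between the GA-deficient mutant and Ler. The 5 probe sets of 1 named gene outside the set that were most like the mean profile were nuclear, AT1G22060 (0.994), AT1G69760 (0.990), AT3G45850 (0.986), AT1G12830 (0.985) and AT2G20270 (0.984), of 7333 candidates. Their differences between the GA-deficient mutant and Ler were smaller than those of the members, from -0.76 for AT2G20270 to -0.47 for AT3G45850.

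Within groups, where no condition differs, all 5 genes went in the same direction in Ws only. In Ws all 5 were lower in replicate 2 than in replicate 1. The log2 gap there was -0.0095 for rpl22 and -0.098 for rps3, where the median absolute gap of all tested probe sets was 0.187. In the de-etiolated mutant 4 were higher in replicate 2 and rpoA was lower by 0.017. The GA-deficient arrays had rpl36 higher in replicate 2 by 0.49 and the other 4 lower, rpl22 by 0.40. The Ler arrays split 3 against 2, with rpoA higher by 1.33 in replicate 2. The genes rpl23 and rpl2 were also lower in replicate 2 in Ws and higher in it in the de-etiolated mutant, so the shared shift in these groups was not limited to the members.

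**Figure D3:**
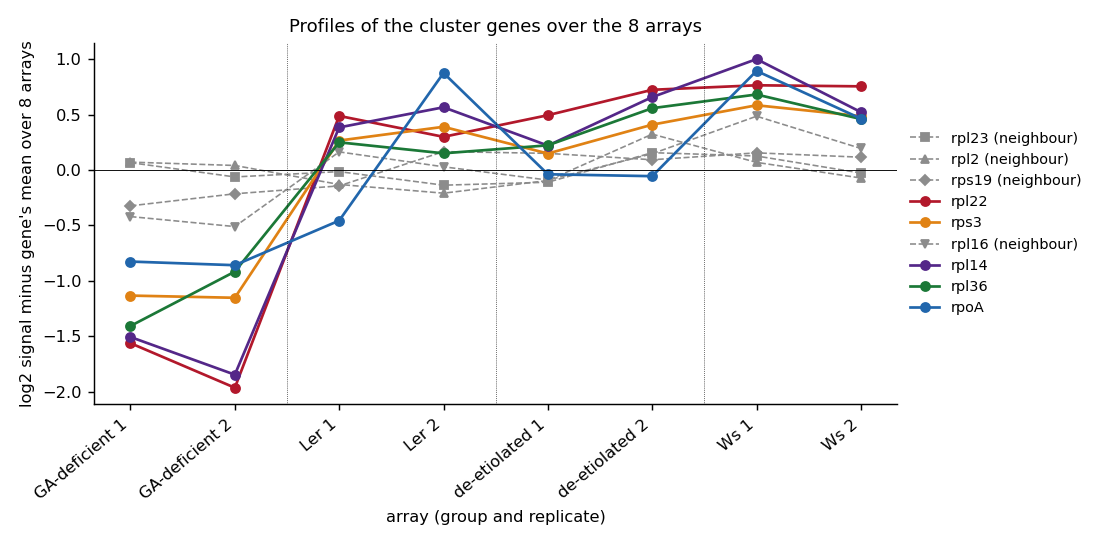
Log2 signal of each cluster gene on each array, minus that gene's mean over the 8 arrays, with members in colour and the 4 neighbours in grey; lines only join the points of a gene. The 4 ribosomal protein genes are all lowest in the GA-deficient arrays, whose difference from Ler chose the members. There they differ in depth, and from replicate 1 to replicate 2 rpl36 changes by 0.49 and rpl22 by -0.40. The line of rpoA departs from those of the 4 in Ler and in the de-etiolated mutant, and rpl23 and rpl2 stay near 0.

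Other genes of the plastid gene expression machinery were read from fixed lists. Of the 12 tested probe sets for plastid-encoded ribosomal proteins outside the cluster, none was called between the de-etiolated mutant and Ws, with a median difference of -0.12. Their median difference between the GA-deficient mutant and Ler was -0.13, and the largest was that of rps15, of the small subunit, at 72.9 ± 9.04 in the mutant and 153 ± 13.5 in Ler (log2 difference -1.04). None of the other 3 polymerase subunit genes was called between the de-etiolated mutant and Ws. Between the GA-deficient mutant and Ler, rpoB of the beta subunit differed by -0.68, while rpoC1 and rpoC2 differed by 0.059 and 0.15. In the de-etiolated mutant rpoB had 94.4 ± 17.7, against 141 ± 2.72 in Ws (log2 difference -0.57, adjusted p = 0.12).

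Genes for photosynthesis and NDH subunits in the plastid genome, which the polymerase transcribes in large part, had a median difference of 0.058 between the GA-deficient mutant and Ler over 43 tested probe sets. The lowest was ndhG, of the NDH complex, at -0.95, with 93.0 ± 5.37 in the mutant and 189.7 ± 71.3 in Ler. None of the 43 was called between the de-etiolated mutant and Ws, and their median there was 0.096. The probe set of ycf1 was named after its values were seen and is assigned to 2 entries of the gene. It had 476 ± 54.6 in the GA-deficient mutant and 1019.7 ± 168 in Ler (log2 difference -1.09, beside -1.05 for the member rpoA). It was the only tested plastid probe set called between the de-etiolated mutant and Ws, at 714 ± 144 in the mutant and 1359.8 ± 57.2 in Ws (log2 difference -0.94, SE 0.16, limma adjusted p = 0.012). That call was lost without Ws replicate 1 (adjusted p = 0.065), Ws replicate 2 (0.075) or de-etiolated replicate 1 (0.079), and without the mean-variance trend (0.070).

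**Figure D4:**
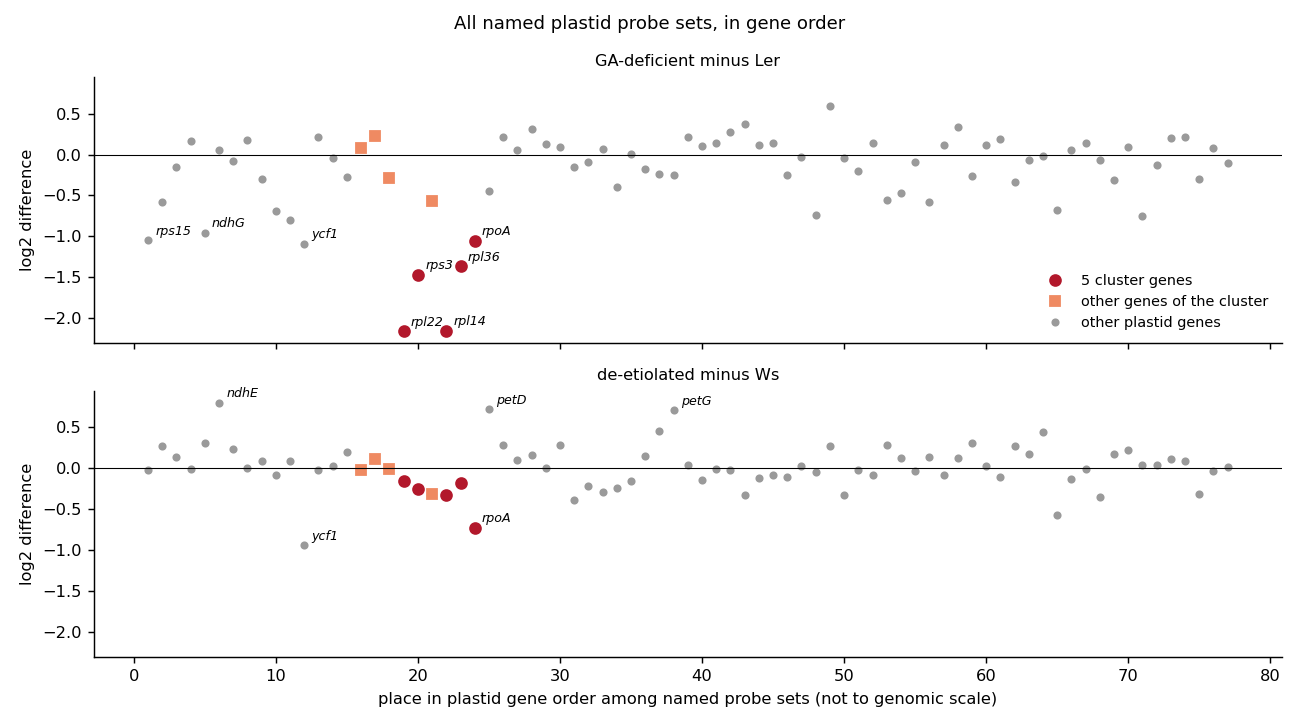
Log2 differences of all named plastid probe sets in plastid gene order, for the GA-deficient mutant minus Ler (top) and the de-etiolated mutant minus Ws (bottom), on the same vertical scale. In the top panel the members lie between -2.16 and -1.05 while the 67 tested probe sets outside the cluster have a median of -0.044. The lowest of these 67, ycf1 at -1.09, lies below the member rpoA at -1.05. In the bottom panel the members lie between -0.73 and -0.15.

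Of 40 listed nuclear genes for plastid ribosomal proteins 10 were named by a probe set and tested, and their differences between the GA-deficient mutant and Ler ran from -0.041 to 0.29, with a median of 0.17. Both GA-deficient arrays were above both Ler arrays for 6 of the 10, beside 29.7% of tested probe sets, and below them for 0. Between the de-etiolated mutant and Ws 1 of them was called, AT5G24490, at 747 ± 138 in the mutant and 405 ± 56.0 in Ws (log2 difference 0.87, SE 0.17, limma adjusted p = 0.020). Its call was lost without Ws replicate 1 (adjusted p = 0.11), Ws replicate 2 (0.059) or de-etiolated replicate 2 (0.087), and also with no filter (0.058), no trend (0.084) or only these groups fitted (0.054). Of 8 genes for the nuclear-encoded plastid polymerases and sigma factors, which direct the plastid-encoded polymerase to promoters, 1 was named by a probe set and it was too dim to be tested. Listed genes of polymerase-associated proteins (12) and of plastid RNA decay (6) were not named by a probe set of 1 gene.

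In bulk RNA of whole seedlings the number of plastids or green cells was not measured, and its part in the differences was not tested. Between the GA-deficient mutant and Ler, the 67 tested plastid probe sets outside the cluster had a median difference of -0.044. That of the 5 genes was -1.47. How the RNA was primed for labelling is not given in the sources used here, so whether full-length, processed or tailed plastid RNA was measured is not known.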

How the data were processed

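Signal intensity of 8 Affymetrix arrays was analysed as deposited by the authors, 1 linear value per probe set and array, which the submitters' processing notes credit to MAS5 with settings not given in the sources used here. Of 22810 probe sets 64 are array controls. The annotation names 1 gene for 13513, several for 503 and none for 8730. The members and gene lists were chosen with earlier results of these data known. Plastid genes were matched by gene ID to the gene table of assembly TAIR10.1, used for names and gene order only.

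Tests used log2(signal + 2.96), where the added constant is a pseudocount of 10% of the median over gene-naming probe sets. Controls and the lowest 40% by mean were left out. The 13647 others entered 1 limma fit of all 4 groups with a mean-variance trend (4 residual and about 8.00 prior degrees of freedom, median SE 0.197), two-sided, with Benjamini-Hochberg adjustment over all of them and a threshold of 0.05. Only the de-etiolated mutant against Ws was tested. The number of arrays limits the precision. Genes named were the members, the cluster's other named genes, called members of the lists with the largest GA-deficient against Ler difference of each plastid list, and the 5 probe sets most correlated with the members' mean profile. Alternatives covered pseudocount, filter, normalization, trend, samples, replicate block, cross-hybridising probe sets and each array left out. Deviations of arrays with the same replicate letter correlated at -0.033 to 0.14 between groups, so the letters were not taken as pairs. In simulated data for 13647 probe sets, 56 of 100 changed 2-fold and 96 of 100 changed 4-fold were recovered for the de-etiolated mutant against Ws, with 7 false calls. Fits ran in limma 3.58.1 under R 4.3.3, and tables and plots were made in Python 3.11.15 (matplotlib 3.10.9, pandas 2.3.3, numpy 2.4.6).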

Additional observations from a re-analysis of the deposited data

How the results depend on the processing

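Between the GA-deficient mutant and Ler, the contrast that chose the genes, the median of the 5 genes was negative under all 15 alternatives run. Other filters, or leaving out a Ws or de-etiolated array, cannot change this median, which was -1.47 there as in the main setting. The median was -1.60 with quantile normalization and -1.72 to -1.41 with single arrays left out. Between the de-etiolated mutant and Ws the median of -0.26 was -0.052 after rescaling by the other plastid genes' median level. It was -0.39 to -0.10 with single arrays left out. After that rescaling rpl22 (0.054) and rpl36 (0.024) turned positive, neither of them called. The rescaling moved all probe sets by 0.20, while the median difference of those plastid genes was 0.024. Calls were gained for rpoA alone, on leaving out either Ler array, with its difference unchanged at -0.73, and over all arrays left out its difference was -0.94 to -0.51. The count of 306 probe sets called was 135 with no filter, 115 without the trend and 162 with only the 2 groups. After the plastid rescaling it was 552 (490 higher, 62 lower). It was 77 to 367 with single arrays left out, with 185 without Ws replicate 1, 77 without Ws replicate 2 and 115 without de-etiolated replicate 1. The replicate block gave 430 calls and called none of the 5 genes. Settings without an array or with only 2 groups use fewer arrays, and no filter tests 22746 probe sets. For the other moves the cause was not tested.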

Other observations

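Among the 6045 tested probe sets for which the annotation gives no gene, 244981_at had a correlation of 0.992 with the mean profile of the 5 genes over the 8 arrays, the second highest after 247990_at (0.993). Its signal was 716 and 679 in the GA-deficient mutant, against 1361 and 1536 in Ler, and 1399.5 and 1777 in the de-etiolated mutant, against 2029 and 1666 in Ws. Probe set 247990_at had 74.0 and 77.8 in the GA-deficient mutant, against 147 and 175 in Ler. Both were picked after their values were seen, and neither is named here.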
